A study of Mus musculus with 3 samples.

Results

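Expression of solute carrier genes was examined in platelet RNA. The platelets came from blood of BALB/c males, 20 weeks of age, with the Nxf1 wild type genotype; Nxf1 encodes an mRNA export receptor. All 3 libraries, replicates 1 to 3, belong to this 1 group, with no treatment named in the labels. The design text calls the samples independent, but no label ties a library to a single animal. Each replicate has its own batch number, so batch and replicate cannot be told apart. A p-value here reflects only how far these samples lie apart, and that distance may be technical. Members were all protein-coding rows with a symbol of Slc and a digit, apart from 6 platelet and glucose carriers (Slc2a1, Slc2a3, Slc6a4, Slc17a9, Slc18a2 and Slc35d3) that were set aside. This gave 129 of the 9822 genes in the tables, from 39 families, of which 31 were mitochondrial carriers of the Slc25 family and 98 were others.

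Solute carriers are membrane proteins that move small molecules without burning ATP directly, either down a gradient or coupled to a flow of sodium, protons or another solute. The families are numbered by sequence and broadly by substrate, from amino acids and sugars to metals, ions, vitamins and nucleotide sugars. The Slc25 family lies mostly in the inner mitochondrial membrane, where it exchanges nucleotides, phosphate, carboxylates and cofactors between the matrix and the cytosol. Platelets have mitochondria but no nucleus and inherit mRNA from the megakaryocyte.

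The libraries held 26974129, 25189231 and 26111636 counts for replicates 1, 2 and 3, and a member had a median of 71, 59 and 75 counts. Levels are given as CPM, counts per 1000000 counts of the library, or as RPKM, which is CPM per 1000 bases of the deposited gene length. All 8 platelet markers checked were detected, at a summed 32541, 34389 and 34743 CPM. Markers of other cells were also present, most of all of red cells: the 9 of 12 listed genes in the tables summed to 48853, 5229 and 6825 CPM in replicates 1, 2 and 3. Sums ran from 145 to 248 CPM for B cells, 18.2 to 29.5 CPM for T cells, 10.6 to 19.6 CPM for neutrophils, 1307 to 1529 CPM for monocytes and macrophages (nearly all Lyz2) and 1728 to 1834 CPM for endothelium (mostly Pecam1, which platelets also carry). In bulk RNA fewer cells of a type and less RNA per cell cannot be told apart.

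The 129 members took 0.288% ± 0.00675 of all counts (SD, n = 3). The shares in replicates 1, 2 and 3 were 0.287%, 0.282% and 0.295%, with exact Clopper-Pearson 95% intervals of 0.285% to 0.289%, 0.280% to 0.284% and 0.293% to 0.297% that cover counting error only. Detection, meaning 1 CPM or more in all 3 libraries, was reached by 93 members, or 72.1%, beside 77.7% of all genes in the tables. A mean of 10 CPM or more was reached by 38 members, or 29.5%, beside 31% of all genes. A mean of 100 CPM or more was reached by 6 members, or 4.65%, beside 7.95%. A stricter minimum of 5 CPM in every library left 44 members, or 34.1%, beside 40.7% of all genes, and 1 RPKM in every library left 55, or 42.6%, beside 54.4%. Per length the median member was at 0.909 ± 0.0921 RPKM, beside 1.48 ± 0.221 RPKM for all genes (SD over 3 libraries). On this scale the members spanned a 4405-fold range.

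Reads were concentrated in few members. Slc44a1, the plasma membrane and mitochondrial choline transporter CTL1, alone gave 39.5% ± 1.49 of member CPM, the 5 highest gave 65.3% ± 2.28 and the 20 highest 84.7% ± 0.560 (SD, n = 3). Per length the order began Slc44a1 at 347 ± 9.50 RPKM, Slc39a4 at 119.5 ± 9.65, Slc3a2 at 51.1 ± 2.87, Slc38a10 at 37.99 ± 3.36 and Slc24a3 at 31.1 ± 1.87 RPKM. The range of each of the first 4 over the libraries lay wholly above that of the next gene. From place 5 to place 25 every pair of neighbours overlapped, so the order there is not resolved. Place 4 is not settled against place 6 either. Slc25a39, at place 6, was at 39.8, 4.74 and 8.37 RPKM in replicates 1, 2 and 3. Slc38a10, at place 4, was at 35.3, 36.9 and 41.7 RPKM.

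**Figure D1:**
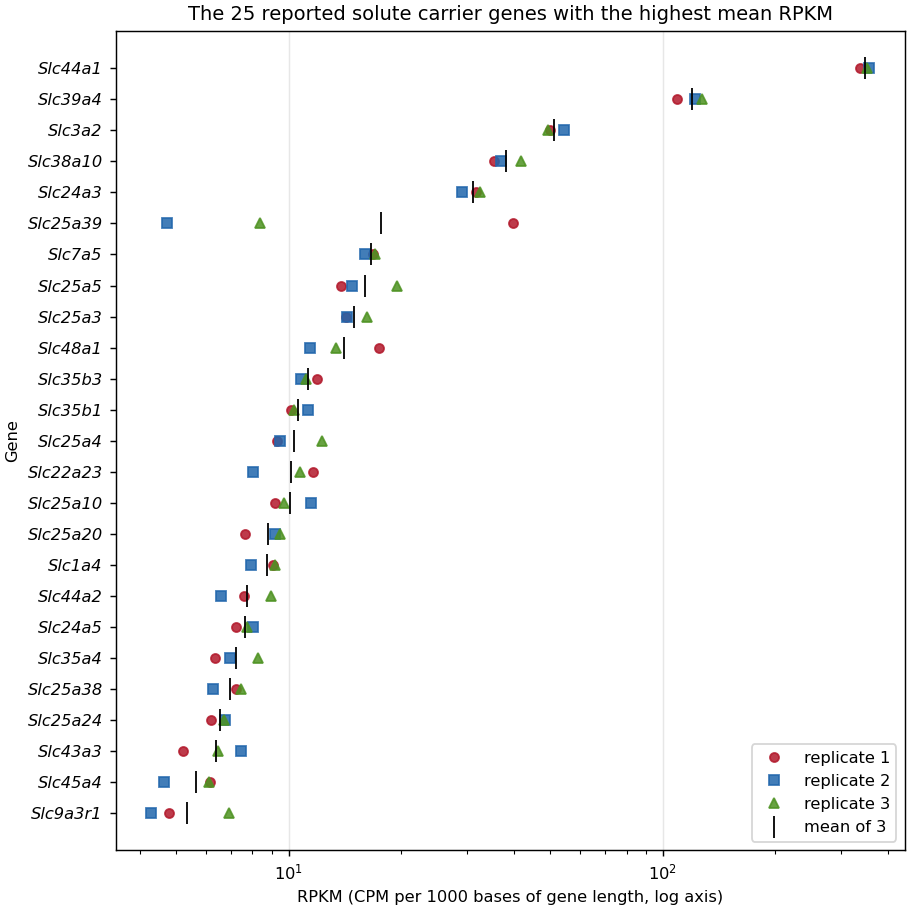
RPKM (CPM per 1000 bases of gene length, log axis) of the 25 solute carrier genes with the highest mean among those reported by name, 1 row per gene, with a symbol for each of the 3 libraries and a bar for their mean. Slc44a1 stands at 347 RPKM and Slc39a4 at 119.5 RPKM, and Slc25a39 is the gene whose libraries lie far apart.

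Promoter sequence was examined for the 99 members in the RefSeq promoter table for GRCm38.p6, a window of 250 bases before to 50 bases after the start site. The windows of 4 genes that the results turn on are shown up to the start site: Slc44a1, the highest member, Slc25a39, the member with the smallest p for spread between libraries, and the paired adenine nucleotide carriers Slc25a5 and Slc25a4. They lie at chr4:53440163-53440412 (plus strand), chr11:102407518-102407767 (minus strand), chrX:36795347-36795596 (plus strand) and chr8:46211063-46211312 (minus strand). Capitals mark a GATA word on either strand. The words searched were AGATAA and its variant with another last base, AGATAG. The same pair with a first T, namely TGATAA followed in the search by the word TGATAG, was also counted. No word is contained in another or in those searched for RUNX and ETS, though their ends can overlap.
Slc44a1: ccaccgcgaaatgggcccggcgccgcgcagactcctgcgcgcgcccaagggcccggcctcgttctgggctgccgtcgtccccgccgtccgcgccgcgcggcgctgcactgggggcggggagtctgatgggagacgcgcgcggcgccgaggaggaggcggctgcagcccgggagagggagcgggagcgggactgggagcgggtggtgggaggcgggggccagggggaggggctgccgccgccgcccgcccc
Slc25a39: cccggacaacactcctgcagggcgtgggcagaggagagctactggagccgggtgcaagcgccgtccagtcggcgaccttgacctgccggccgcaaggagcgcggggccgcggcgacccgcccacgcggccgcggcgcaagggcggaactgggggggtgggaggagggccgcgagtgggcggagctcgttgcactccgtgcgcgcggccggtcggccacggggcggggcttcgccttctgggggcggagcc
Slc25a5: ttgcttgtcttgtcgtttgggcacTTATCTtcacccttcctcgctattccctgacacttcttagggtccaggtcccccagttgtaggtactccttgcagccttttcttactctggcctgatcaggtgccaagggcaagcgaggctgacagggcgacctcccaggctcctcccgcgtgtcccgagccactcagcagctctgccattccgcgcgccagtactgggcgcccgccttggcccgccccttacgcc
Slc25a4: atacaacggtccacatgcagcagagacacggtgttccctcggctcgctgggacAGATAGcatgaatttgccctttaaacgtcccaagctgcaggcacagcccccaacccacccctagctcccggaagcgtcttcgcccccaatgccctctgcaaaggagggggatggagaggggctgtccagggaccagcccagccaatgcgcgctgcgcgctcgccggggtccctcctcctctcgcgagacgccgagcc
Slc44a1 and Slc25a39 have none of these words in the window, with 81.2% and 77.2% G and C over the 250 bases and 38 and 35 CG pairs. The start site listed for Slc25a39, 102407517 on the minus strand, lies inside its RefSeq extent, which begins at 102408675. Sequence before that outer end was not examined. Slc25a4 has AGATAG starting 197 bases before the start site, and Slc25a5 has TTATCT, the other strand of AGATAA, starting 226 bases before it. For genes with several windows only the first listed was counted, in every set. A GATA word was in 19.2% of these member windows (19 of 99), beside 18.5% for the 7606 genes of the tables with a window and 30.2% for all 27025 genes of the promoter table. The RUNX word TGTGGT was in 10.1% of member windows, beside 12.2% for genes of the tables and 16.9% for all genes of the promoter table. The ETS word CCGGAA was in 35.4%, beside 30.5% and 15.2% for the same sets. A match is a run of letters and not a shown binding site.

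The class of vitamin, choline and haem carriers held the highest member and some of the lowest. Slc44a1 (Entrez gene 100434, chromosome 4, 53440387 to 53622478 in GRCm38) was at 1104, 1164 and 1148 CPM in replicates 1, 2 and 3. The 3 libraries are close together, and the gene ranked at place 111 of 9822 by CPM. Its paralogue Slc44a2, which in humans carries a neutrophil alloantigen, was at 27.3, 23.7 and 32.3 CPM. Per length Slc44a1 was 44.9 times as high as Slc44a2, a log2 ratio of 5.50 ± 0.23 (SD, n = 3). Slc48a1, which carries haem out of endosomes and lysosomes, was at 43.97, 28.9 and 33.9 CPM, highest in replicate 1. In the test of spread described further on it had an unadjusted p of 0.0198 and did not pass after adjustment (edgeR, adjusted p = 0.982). Slc49a4 was at 2.41 ± 0.394 CPM. Slc46a3 at 0.537 CPM and the ascorbate transporter Slc23a1 at 0.537 CPM were under the detection threshold. The class median over 6 genes was 15.1 ± 2.22 CPM, or 4.13 ± 0.615 RPKM.

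Among metal carriers the zinc importer Slc39a4 stood far above the rest. Slc39a4 encodes ZIP4, known for zinc uptake in the gut and mutated in human acrodermatitis enteropathica. It lies on chromosome 15, from 76612383 to 76618506 (Entrez gene 72027), and was at 242, 272 and 284 CPM. It was 35.2 times as high per length as Slc39a6 (log2 ratio 5.13 ± 0.22, SD, n = 3), a plasma membrane zinc importer at 13.2 ± 1.03 CPM. All 8 Slc39 members, which move zinc and other metals into the cytosol, were detected. They summed to 122, 136 and 141 RPKM, and without Slc39a4 to 13.2, 13.5 and 13.4 RPKM. The 5 Slc30 members, of a family that mostly moves zinc out of the cytosol, summed to 5.07, 4.02 and 5.02 RPKM, and 3 were detected. They were led by Slc30a1, the zinc exporter of the plasma membrane, at 15.8 ± 1.57 CPM. The Slc39 sum lay above the Slc30 sum in every library, with or without Slc39a4. These sums cover 8 of 14 Slc39 and 5 of 10 Slc30 symbols that RefSeq lists as protein-coding. Slc39a1, another zinc importer, was at 10.8 ± 0.548 CPM, and the copper importer Slc31a1 at 0.853, 1.11 and 1.03 CPM fell short of detection in 1 library. The iron carriers Slc40a1, Slc11a1 and Slc11a2 were not analysed here. Of the other importers Slc39a9 was at 5.67 ± 0.535 CPM, Slc39a11 at 4.84 ± 0.129, Slc39a13 at 2.17 ± 0.403, Slc39a3 at 1.96 ± 0.515 and Slc39a7, a zinc channel of the endoplasmic reticulum, at 2.33 ± 0.305 CPM. The class median over 14 genes was 2.78 ± 0.434 CPM, or 1.01 ± 0.0674 RPKM, with 11 detected.

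Amino acid carriers formed the largest class outside the mitochondria, with 18 members, 14 detected and a median of 5.06 ± 0.693 CPM (1.42 ± 0.208 RPKM). Slc3a2 encodes the CD98 heavy chain, which escorts several light chains of the Slc7 family to the membrane and also binds integrin beta chains. Its light chain Slc7a5, the transporter LAT1 for large neutral amino acids, was at 58.9, 56.1 and 59.6 CPM, and the heavy chain at 147, 161 and 145 CPM. Per length the light chain stood at 0.324 times the heavy chain, a log2 ratio of -1.62 ± 0.13 (SD, n = 3). The other light chains in the tables were much lower: Slc7a7, of the cationic amino acid exchanger, at 1.63 ± 0.140 CPM (log2 ratio to Slc3a2 -6.29 ± 0.04), and Slc7a11, of the cystine and glutamate exchanger, at 2.09 ± 0.259 CPM (-7.81 ± 0.25). Each of these 3 light chains lay below the heavy chain in all 3 libraries.

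Slc38a10, of the sodium-coupled neutral amino acid family, was at 191, 199.8 and 226 CPM. The better known members of that family were lower: Slc38a1 (SNAT1) was at 2.03 ± 0.0839 CPM and Slc38a2 (SNAT2) at 9.36 ± 0.836 CPM. Slc38a1 stood at a log2 ratio of -3.05 ± 0.08 to Slc38a2 per length. Slc38a9, the lysosomal arginine sensor of mTORC1, was the lowest member per length, at 0.0788 RPKM. Slc1a4, the neutral amino acid exchanger ASCT1, was at 34.3 ± 2.79 CPM and the taurine transporter Slc6a6 at 25.3, 18.1 and 21.4 CPM. Slc43a3, a purine nucleobase carrier placed here by its family number, was at 16.6 ± 2.95 CPM, and the facilitator Slc43a2 (LAT4) at 12.03 ± 0.539 CPM. Slc66a2 and the lysosomal carrier Slc66a1 were at 7.23 ± 0.638 and 2.88 ± 0.749 CPM. The cationic amino acid transporter Slc7a1 was at 0.788 CPM, under the detection threshold.

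Ion carriers were uneven in level. Slc24a3, which exchanges sodium for calcium and potassium, was at 109, 99.6 and 112 CPM, a narrow range over the libraries. Slc24a5, an exchanger known from melanosomes, was at 14.1, 15.6 and 15.1 CPM. It overlaps Myef2 on the opposite strand (0.730 CPM), and 37.8% of the 50-base words of its transcripts also occur in other annotated genes, mostly in that gene, so its level is uncertain. The organellar sodium and proton exchanger Slc9a7 was at 2.10 ± 0.350 CPM, and Slc9a9 was under the detection threshold at 0.718 CPM. The plasma membrane exchanger Slc9a5 was at 4.03 ± 0.125 CPM, and Slc41a3, of a magnesium carrier family, at 4.90 ± 0.426 CPM. Of the bicarbonate carriers, Slc4a2 (AE2) was at 2.88 ± 0.647 CPM, while Slc4a1 differed between libraries and is described with the red cell genes. The class of 16 had 11 detected and a median of 2.60 ± 0.511 CPM, or 0.656 ± 0.102 RPKM.

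The nucleotide sugar class, 14 Slc35 genes with Slc33a1 and Slc37a1, supplies the endoplasmic reticulum and Golgi apparatus with building blocks for glycans and sulphation. It had 10 of 16 detected and a median of 2.12 ± 0.205 CPM (0.769 ± 0.0586 RPKM). Slc35b3, which imports the sulphate donor PAPS into the Golgi, led at 26.4, 23.9 and 24.7 CPM. The other PAPS transporter, Slc35b2, was at 2.11 ± 0.147 CPM. Slc35b1, which exchanges ATP into the endoplasmic reticulum, was at 12.4 ± 0.693 CPM, Slc35a4 at 20.5 ± 2.82 CPM and Slc35f5 at 10.3 ± 0.187 CPM. The UDP-galactose transporter Slc35a2 was at 5.26, 5.68 and 4.40 CPM and the GDP-fucose transporter Slc35c1 at 0.556, 0.754 and 1.11 CPM, so that Slc35c1 passed 1 CPM in replicate 3 alone.

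The remaining classes were small. Of sugar carriers apart from those set aside, Slc45a4 was at 26.98 ± 4.11 CPM, the urate transporter Slc2a9 at 12.3 ± 1.02 CPM and Slc50a1 at 1.99 ± 0.300 CPM, with a class median of 12.3 ± 1.02 CPM (3.19 ± 0.265 RPKM). Slc27a2, a fatty acid transporter with acyl-CoA synthetase activity, was at 11.4 ± 0.383 CPM and Slc27a4 at 0.523 CPM, giving a median of 5.98 ± 0.212 CPM (2.55 ± 0.0883 RPKM). The sodium and phosphate cotransporters Slc20a1 and Slc20a2 were at 10.8 ± 1.25 and 4.84 ± 0.173 CPM, a log2 ratio of 0.96 ± 0.15 per length, with a median of 7.83 ± 0.671 CPM (1.96 ± 0.163 RPKM). Slc22a23, an orphan of the organic ion family, was at 72.7, 50.2 and 67.1 CPM, and the organic cation transporter Slc22a3 at 8.98 ± 0.218 CPM; this class of 8 had a median of 1.90 ± 0.0733 CPM (1.41 ± 0.0376 RPKM). Slc51b, the beta subunit of a bile acid exporter, was at 1.04, 1.83 and 1.23 CPM, and Slc12a3 at 1.11, 1.39 and 1.53 CPM; with Slc35c2, whose lowest library was also at 1.11 CPM, they were the detected members closest to the threshold. Slc25a35, at 0.927, 0.953 and 1.03 CPM, and Slc15a4, whose lowest library was at 0.964 CPM, fell just short of it.

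Carboxylate carriers were led by Slc16a12, known to carry creatine, at 11.9 ± 0.684 CPM. The aromatic amino acid transporter Slc16a10 was at 3.87 ± 0.230 CPM. The class median over 5 genes was 0.566 ± 0.0625 RPKM. The lactate transporters Slc16a1 and Slc16a3 were not analysed here. The urea transporters Slc14a1 and Slc14a2 were at 4.04, 4.17 and 3.45 CPM and at 5.64, 5.80 and 5.97 CPM, a median of 4.84 ± 0.136 CPM (1.05 ± 0.0366 RPKM). Neither nucleoside carrier was detected: Slc28a2 was at 0.878 CPM and the lysosomal Slc29a3 at 0.741 CPM, a median of 0.810 ± 0.315 CPM (0.183 ± 0.0716 RPKM). The 4 genes that match by name but are no transporters, the scaffolds Slc9a3r1 and Slc9a3r2 with Slc4a1ap and Slc7a6os, had a median of 2.37 ± 0.281 CPM (1.01 ± 0.118 RPKM), led by Slc9a3r1 at 10.3 ± 2.70 CPM.

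Class medians thus ran from 0.183 to 4.13 RPKM, while single classes were wider. Amino acid carriers spanned 649-fold, metal carriers 944-fold and the vitamin, choline and haem class 1948-fold between their lowest and highest gene.

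**Figure D2:**
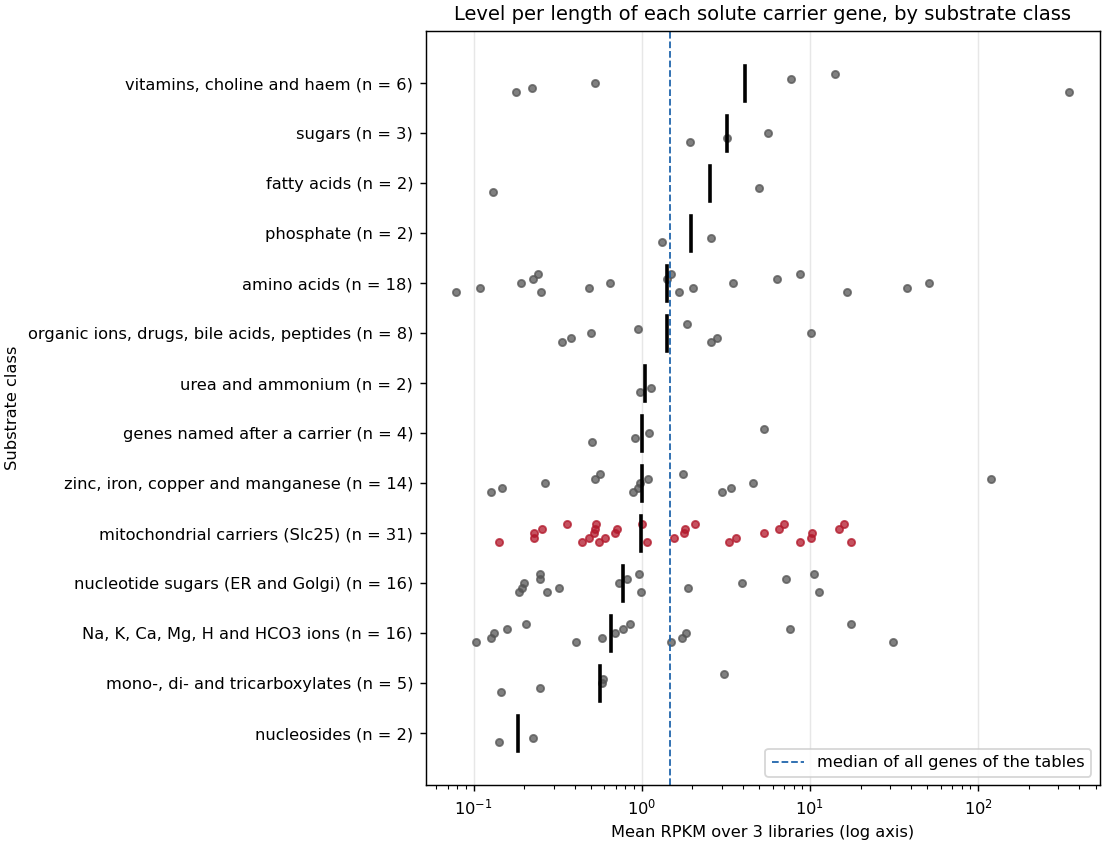
Mean RPKM over 3 libraries (log axis) of each of the 129 members, 1 row per substrate class with its number of genes; black bars are class medians (mean of the 3 library medians), red points the Slc25 family and the dashed line the median of all genes, 1.48 RPKM. Single genes such as Slc44a1 and Slc39a4 lie far to the right of the median of their class.

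The mitochondrial carriers were the class with the most members in the tables: 31 of the 47 Slc25 symbols that RefSeq lists as protein-coding had a row (65.96%), beside 98 of 322 other solute carrier symbols (30.4%) and 41.6% of all 21900 protein-coding genes. Genes without a row were not analysed here. The Slc25 members took 0.0250% ± 0.00276 of counts (SD, n = 3), at 0.0277% (exact 95% interval 0.0271% to 0.0283%), 0.0222% (0.0216% to 0.0228%) and 0.0250% (0.0244% to 0.0256%) in replicates 1, 2 and 3. Of the 31, 23 were detected (74.2%), beside 70 of the 98 other members (71.4%). None reached 100 CPM, and the highest by mean CPM, Slc25a10, gave 16.2% of the class total, beside 94.5% for Slc44a1 in its class. In replicate 1 Slc25a39 was the highest, at 66.7 of 277 CPM.

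The carriers of phosphate and carboxylates, 4 of 4 detected, had the highest group median, at 6.88 RPKM. The iron, haem and glutathione group, 3 of 4 detected, followed at 4.40 RPKM. By summed CPM the highest group differed between libraries. In replicate 1 it was iron, haem and glutathione, at 94.5 CPM beside 66.3 CPM for phosphate and carboxylates. In replicate 3 it was nucleotides and cofactors, at 80.3 CPM beside 75.6 CPM. Slc25a3, which brings phosphate for ATP synthesis and copper into the matrix, was at 21.5, 21.6 and 24.4 CPM. The dicarboxylate carrier Slc25a10 was at 36.8, 45.8 and 38.8 CPM, the oxoglutarate and malate carrier Slc25a11 at 4.93, 6.55 and 8.96 CPM and the citrate carrier Slc25a1 at 3.00 ± 0.421 CPM. Slc25a11 was lowest in replicate 1 and highest in replicate 3.

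For nucleotides and cofactors 10 of 12 were detected, at a median of 0.701 RPKM. The adenine nucleotide translocases, which exchange matrix ATP for cytosolic ADP, were both present: Slc25a4 (ANT1) at 10.3, 10.5 and 13.6 CPM and Slc25a5 (ANT2) at 17.1, 18.3 and 24.1 CPM. Their promoter windows, printed above, each hold 1 GATA word. Per length Slc25a4 lay below Slc25a5 in all 3 libraries, at a log2 ratio of -0.62 ± 0.05 (SD, n = 3). However, 33.8% of the 50-base words of Slc25a5 transcripts also occur in other annotated genes, chiefly Gm5560, so its level is uncertain. The ATP-Mg and phosphate carrier Slc25a24 was at 20.9, 22.9 and 22.7 CPM, and its paralogues Slc25a23 at 1.22, 1.91 and 2.49 CPM and Slc25a25 at 0.371, 0.476 and 0.843 CPM. Slc25a24 was 46.1 times as high per length as Slc25a25, a log2 ratio of 5.56 ± 0.54 (SD, n = 3). Slc25a25 was under the detection threshold in all 3 libraries, with 10, 12 and 22 counts, so the size of this ratio is imprecise. The peroxisomal carrier Slc25a17 was at 3.46 ± 0.272 CPM and the NAD carrier Slc25a51 at 5.49, 3.02 and 4.94 CPM, while the coenzyme A carrier Slc25a42 was at 1.41 ± 0.123 CPM and the folate and FAD carrier Slc25a32 under the threshold at 0.754 CPM.

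Amino acid and carnitine carriers had 3 of 5 detected at a median of 3.32 RPKM. Slc25a20, which brings acylcarnitines into the matrix for fatty acid oxidation, was at 13.6, 16.4 and 16.9 CPM. Slc25a12, the aspartate and glutamate carrier aralar, was at 13.1, 15.7 and 17.9 CPM, and Slc25a44, which carries branched-chain amino acids, at 11.9 ± 0.782 CPM. The ornithine carrier Slc25a15 (0.788 CPM) and the glutamate carrier Slc25a22 (0.650 CPM) were under the threshold. The paralogues Slc25a13 and Slc25a29 were not analysed here. The 6 members with no substrate assigned had 3 detected and a median of 0.568 RPKM, led per length by Slc25a45 at 1.55 ± 0.327 RPKM and Slc25a46, of the outer mitochondrial membrane, at 1.08 ± 0.150 RPKM.

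**Figure D3:**
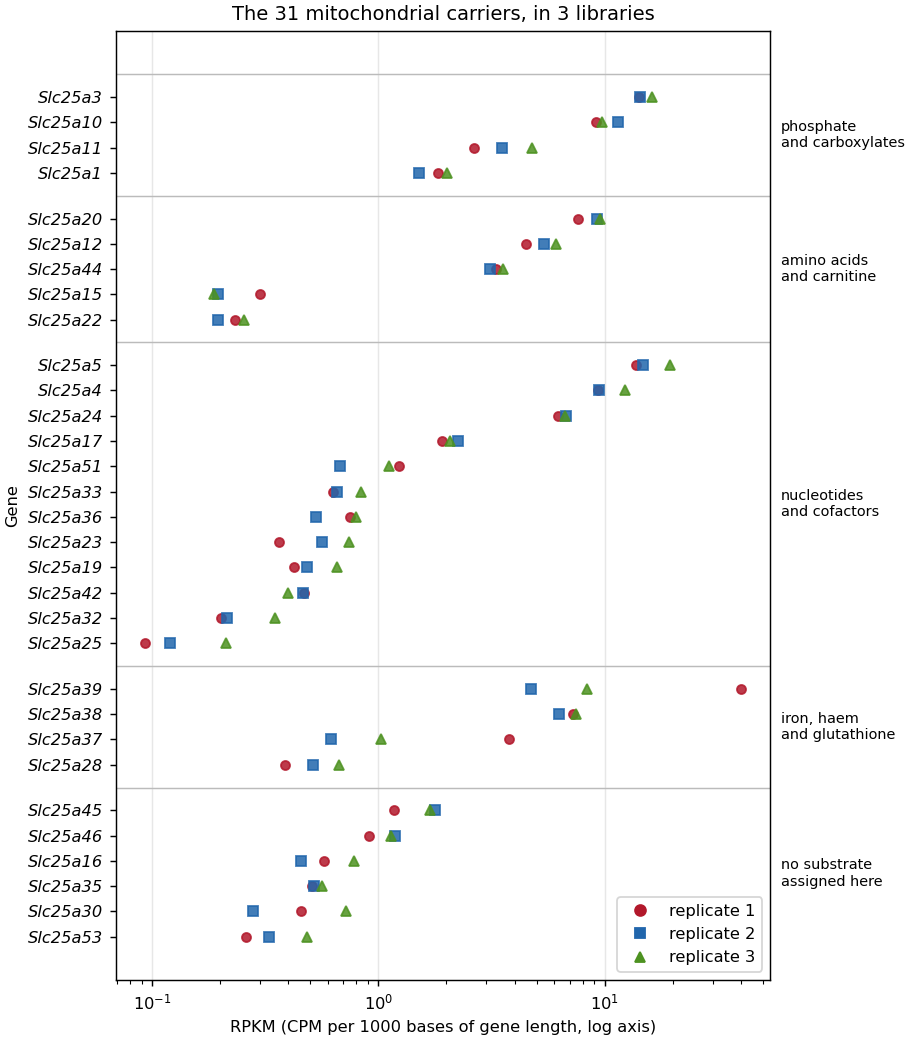
RPKM (log axis) of the 31 Slc25 members in each of the 3 libraries, grouped by what they carry, 1 row per gene. Slc25a3, Slc25a10, Slc25a5 and Slc25a4 lie near or above 10 RPKM, and Slc25a39 and Slc25a37 have replicate 1 far above the other two.

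Per length the difference between the mitochondrial family and the other members was smaller than its spread. The median Slc25 member was at 0.989 ± 0.269 RPKM, and the median other member at 0.899 ± 0.0716 RPKM (SD over 3 libraries). The difference of medians, Slc25 minus other, was 0.35, -0.27 and 0.21 on the log2 scale in replicates 1, 2 and 3, a mean of 0.10 ± 0.33 (SD, n = 3). It was -0.030 without replicate 1 and 0.43 ± 0.14 among detected members alone. By plain CPM, not divided by length, the difference was 0.22 ± 0.06 (SD, n = 3), with the Slc25 median higher in all 3 libraries. No test was run: with 3 libraries the smallest p that exact two-sided sign permutation can give is 0.25.

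Slc25a39 and Slc25a37, of the 4 iron, haem and glutathione carriers, differed between libraries, as did Slc4a1. Slc25a39 (chromosome 11, 102402969 to 102408675), which imports glutathione into mitochondria, was at 66.7, 7.94 and 14.02 CPM in replicates 1, 2 and 3. Its promoter window, printed above, holds no GATA word, but the start site of that window lies inside this extent. Slc25a37, mitoferrin 1, which brings iron to mitochondria for haem synthesis in red cell precursors, was at 15.8, 2.58 and 4.29 CPM. Outside the family Slc4a1, the anion exchanger band 3 of the red cell membrane, was at 19.4, 1.39 and 2.87 CPM. In each of the 3 genes replicate 1 is high and the other 2 libraries are low, with replicate 1 at 6.08, 4.60 and 9.12 times the mean of the others for Slc25a39, Slc25a37 and Slc4a1. Without replicate 1 their means, in the same order, were 10.98, 3.43 and 2.13 CPM.

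The spread between libraries was tested by edgeR, which set each gene's quasi-likelihood dispersion against the trend over genes of like level. It covered 8289 genes averaging at least 1 CPM, 84.4% of the tables, and 99 members, or 76.7%. Of the 99 members fitted, these 3 passed a Benjamini-Hochberg adjusted p of 0.05, or 3.03%, beside 0.229% of all genes fitted (19 genes) and 0.217% called and highest in replicate 1. The adjusted p was 0.000163 for Slc25a39, 0.000551 for Slc4a1 and 0.00734 for Slc25a37 by edgeR. Among the 99 members fitted, the next highest ratio of replicate 1 to the others was 1.40, for Slc48a1. Their median ratio was 0.962, beside 0.918 for all genes fitted. A range of at least 3-fold between libraries was seen in the same 3 members, or 3.03%, beside 0.82% of all genes fitted, and a range of at least 2-fold in 4, or 4.04%, beside 9.33%. The fourth was Slc25a23, lowest in replicate 1.

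Red cell genes were also higher in replicate 1. Of the 19 genes called, 18 were highest in replicate 1, among them 6 of the 9 red cell markers in the tables: Hba-a1, Hba-a2, Hbb-b1, Hbb-bs, Alas2 and Bpgm. Their ratios of replicate 1 to the mean of the others ran from 6.68 for Hba-a1 to 12.95 for Alas2, the first enzyme of red cell haem synthesis. The summed red cell markers had a ratio of 8.11, and the platelet markers 0.941. The ratios were 1.20 for Epb42 and 1.55 for Tfrc, neither past the test, and Ahsp, Hbb-bt and Klf1 were not analysed here. The part of red cell RNA in the spread of the 3 carriers was not tested. Other members known from red cells or haem had ratios from 0.649 to 1.40. Slc14a1, the urea transporter that carries the Kidd blood group in humans, was at 4.04, 4.17 and 3.45 CPM, a ratio of 1.06, and Slc25a38, a glycine carrier needed for haem synthesis, at 11.4, 9.96 and 11.8 CPM, a ratio of 1.05. Slc25a28, mitoferrin 2, was at 0.593, 0.794 and 1.03 CPM, a ratio of 0.649, and the haem carrier Slc48a1, given above, had a ratio of 1.40. The log2 ratio of Slc25a37 to Slc25a28 per length was therefore 3.25, 0.24 and 0.59 in replicates 1, 2 and 3.

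The 3 calls rest on replicate 1. Without it 0 members were called by edgeR (0 at an unadjusted p under 0.05, and 1 gene of 8394 in all), and with a robust prior 0 were called (2 at an unadjusted p under 0.05, and 0 of 8289 genes in all). DESeq2 marked the same 3 among 49 dispersion outliers of 8289 genes. With plain totals 1 member was called, Slc25a39, among 11 of 8289 genes, and with a filter of 5 CPM the same member among 11 of 4351 genes.

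**Figure D4:**
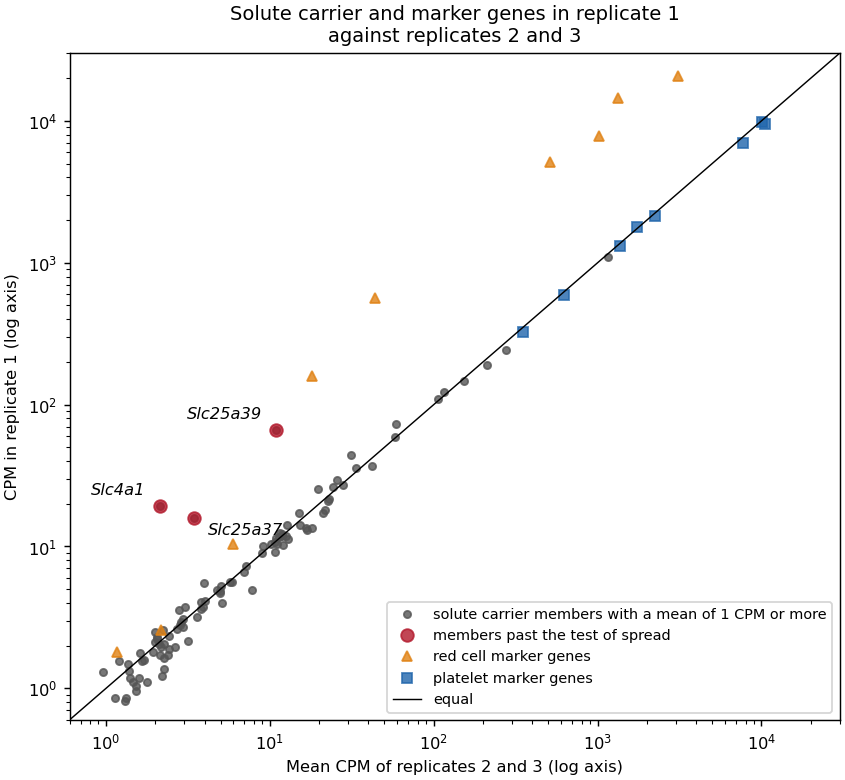
CPM in replicate 1 against the mean CPM of replicates 2 and 3 (both log axes) for the 99 members with a mean of 1 CPM or more (grey, with the 3 past the test of spread in red), red cell markers (triangles) and platelet markers (squares); the line marks equal levels. Slc25a39, Slc4a1 and Slc25a37 lie above the line with the globin genes, and the other members lie along it with the platelet markers.

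Across libraries the better expressed members varied about as much as other genes. Among the 38 members with a mean of 10 CPM or more the median coefficient of variation was 8.22%, beside 7.43% for all 3044 such genes. Of 16 pairs listed for comparison 7 could be computed. Slc44a1 over Slc44a2, Slc25a24 over Slc25a25, Slc25a37 over Slc25a28 and Slc20a1 over Slc20a2 were above 0 in all 3 libraries. Slc25a4 over Slc25a5, Slc38a1 over Slc38a2 and Slc30a1 over Slc39a1 were below 0 in all 3 per length. Slc30a1 over Slc39a1 was -0.62 ± 0.22 per length and 0.54 ± 0.22 by plain CPM, so its direction depends on the length scale, and 21.8% of the 50-base words of Slc39a1 are shared, with Slc39a1-ps.

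**Figure D5:**
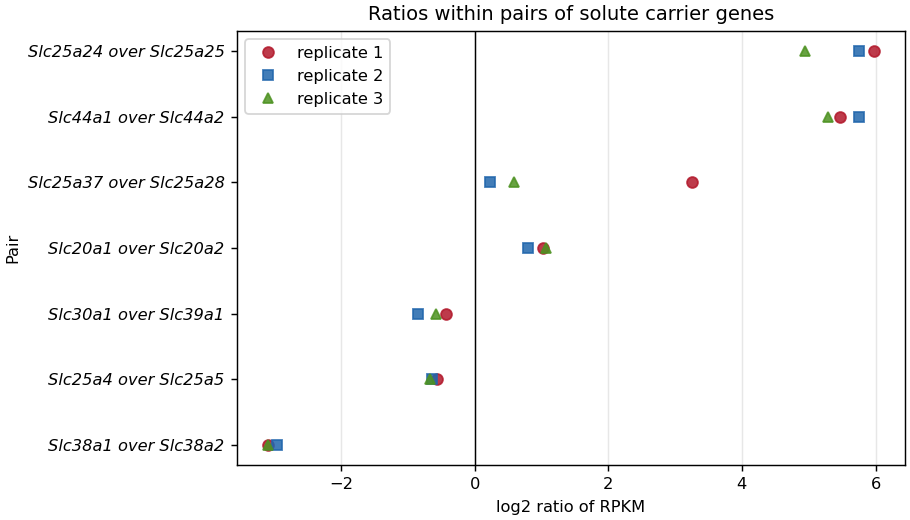
log2 ratio of RPKM within the 7 pairs of solute carrier genes, 1 row per pair, a symbol for each library; the vertical line marks equal levels. Slc25a24 and Slc44a1 stand highest over their paralogues, and replicate 1 stands apart for Slc25a37 over Slc25a28.

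Some levels are uncertain because reads can come from elsewhere. Of 126 members with GENCODE M21 transcripts, 10 share 20% or more of their 50-base words with another annotated gene, with Slc39a7 highest at 74.5%, all with Gm20427. In RefSeq extents 16 members overlap another gene of the tables, and in 8 the other gene had the higher mean CPM. The widest gap was Slc23a1, at 0.537 CPM beside Paip2 on the opposite strand at 1264 CPM. The strand setting of the counting is not given in the sources used here, so reads of such pairs cannot be told apart.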

How the data were processed

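Platelet RNA was measured in 3 libraries of 1 group, put together by the genotype label and numbered 1 to 3. Per the labels' protocols, a Norgen kit gave the RNA and a TruSeq RNA kit the libraries. The deposited tables hold, for each Entrez gene, its length and the authors' raw read counts. The submitters' processing notes name mm10 and, as tools, edgeR 3.11.5, featureCounts, Subread and CASAVA 1.8.2. Annotation, multi-mapping and strand settings were not given in these sources. Every library had the same 9822 genes; a few are counted in totals and medians but not reported by name here.

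Symbols came from the GRCm38.p6 RefSeq table by Entrez number; 186 genes had none. Members, classes and lists were chosen with earlier results of these data known, and Slc4a1ap and Slc7a6os were set apart after the symbols had been seen. Named genes were the 15 highest by CPM, the 4 highest of each class and the 12 highest Slc25 genes by RPKM, those past the test of spread and the 5 with the smallest p in it, listed pairs, Slc4a1, Slc14a1, Slc25a37 and members next to the detection threshold; a few others were named after their values were seen. A count of 0 allows up to 3 counts, or 0.111, 0.119 and 0.115 CPM.

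The test of spread used edgeR 4.0.16 (limma 3.58.1, R 4.3.3) with an intercept, TMM factors of 0.954, 0.958 and 1.09 and 2 residual degrees of freedom, tested on simulated data. Log2 values used a prior count of 0.5. Alternatives included DESeq2 1.42.0. Shared words of 50 bases came from GENCODE M21 transcripts. Other steps used Python 3.11.15 with pandas 2.3.3 and SciPy 1.17.1.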

Additional observations from a re-analysis of the deposited data

How the results depend on the processing

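Of 161 alternative values, 127 kept their direction and stayed within the replicate spread or within 1.5 times of a count. Detected members numbered 44, with 10 in Slc25 and 34 outside it, at a minimum of 5 CPM (40.7% of all genes), and 55, with 14 and 41, at 1 RPKM (54.4% of all genes). Leaving out each replicate gave 94 to 98 detected members, 23 to 24 in Slc25 and 71 to 74 outside it. The difference of medians between Slc25 and other members was 0.43 among detected members and -0.030 to 0.28 with a replicate left out, turning to -0.030 without replicate 1; the cause was not tested. The share of counts was 0.507% for members and 0.0439% for Slc25 with the 10 highest genes taken out of the total, by construction, and 0.284% to 0.291% and 0.0236% to 0.0264% with a replicate left out. Chosen after seeing the data, the share was 0.174% without Slc44a1 and that of Slc25 was 0.0213% without Slc25a37 and Slc25a39. The spread test called 1 member with plain totals (11 of 8289 genes), 1 with a filter of 5 CPM (11 of 4351), 0 with a robust prior (0 of 8289) and 0 to 3 with a replicate left out (1, 29 and 32 genes without replicates 1, 2 and 3). For Slc25a39 the adjusted p by edgeR ran from 2.31e-17 to 0.992, for Slc4a1 from 9.24e-14 to 0.992 and for Slc25a37 from 8.41e-08 to 0.992 over the edgeR alternatives; the cause was not tested.

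In RPKM instead of CPM the class medians were 4.13 (vitamins, choline and haem), 3.19 (sugars), 2.55 (fatty acids), 1.96 (phosphate), 1.42 (amino acids), 1.41 (organic ions), 1.05 (urea), 1.01 (genes named after a carrier), 1.01 (metals), 0.989 (mitochondrial), 0.769 (nucleotide sugars), 0.656 (ions), 0.566 (carboxylates) and 0.183 (nucleosides), a change of unit. By plain CPM the log2 ratio was -0.78 for Slc25a4 to Slc25a5, 1.15 for Slc20a1 to Slc20a2, -2.19 for Slc38a1 to Slc38a2 and 0.54 for Slc30a1 to Slc39a1, the last one reversed by the gene lengths. Counting depth limits members near 1 CPM, which rest on about 25 reads. No paired analysis was possible because there is 1 group.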

Other observations

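Several carriers known from other organs had counts in all 3 libraries, as every member did (lowest member count 8, 9 and 9). Slc12a3, the thiazide-sensitive cotransporter of the kidney, was at 1.11, 1.39 and 1.53 CPM in replicates 1, 2 and 3. The dopamine transporter Slc6a3 was at 1.78, 1.63 and 1.61 CPM, and the kidney urea transporter Slc14a2 at 5.64, 5.80 and 5.97 CPM. Slc22a4, which carries ergothioneine, was at 2.48, 1.83 and 2.14 CPM. These genes were chosen after their values had been seen, and their source among the cells of the preparation was not tested.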
